A study of Arabidopsis thaliana with 4 samples.

Results

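The salicylic acid genes described here are 38 Arabidopsis thaliana loci chosen by identifier from a list that covers salicylic acid and pipecolate synthesis, the EDS1 and PAD4 regulators, the NPR receptors, the TGA factors, the PR genes and the AZI1 and EARLI1 lipid transfer protein genes. In the deposited table they fall in 36 gene models that hold an annotated transcript, of 32122 such models and 36251 models in all. A gene model is a merged transcript locus, and the AZI1 and EARLI1 genes share a model, as do TGA2 and TGA5. RNA was taken from whole 2-week-old wild-type seedlings of 2 Columbia (Col-0) lines that had been propagated apart, called Another Col-0 and SALK Col-0, with 2 biological replicates of each. All plants were grown in soil in long days at 22 °C, and no mutation, treatment or infection is named for either line. The comparison asks which of these transcripts differ between stocks of the same accession.

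Salicylic acid is a phenolic hormone of defence against biotrophic pathogens. Most of it is made from chorismate in the plastid by isochorismate synthase, exported by EDS5 and completed in the cytosol by PBS3 and EPS1. NPR1, NPR3 and NPR4 bind the hormone and act with TGA transcription factors on target genes such as PR1, while N-hydroxypipecolic acid, made by ALD1, SARD4 and FMO1, carries resistance to distant leaves. In unchallenged leaves of Col-0 the pathway is known to run at a low level.

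Values are FPKM, a read abundance scaled to transcript length and to the mapped fragments of the library. Line differences were taken on the scale of log2(FPKM + 1), positive where Another Col-0 was higher, with the standard error (SE) of limma, a linear model that pools the spread over all models. The 27 models that averaged 1 FPKM or more over the 4 libraries were tested together with the rest of the table, and the other 9 are given by their levels only. None of the 27 passed that filter through the level of a single line: both line means were at least 1 FPKM in each. The labels do not state whether replicates were grown or harvested apart, and p-values therefore measure the spread between these libraries, and 2 libraries against 2 cannot give an exact two-sided permutation p under 0.333. Read totals are not given in the table, so the depth behind each value is unknown. Each library had a value above 0 for between 22490 and 22808 annotated models, and the median of annotated models at or above 1 FPKM lay between 15.2 and 15.6 FPKM.

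The AZI1 model stood apart from the other salicylic acid models in level and in line difference. It spans chr4:7401109-7414929 on the minus strand and pools 4 neighbouring genes, AZI1 (AT4G12470), EARLI1 (AT4G12480), AZI3 (AT4G12490) and AZI4 (AT4G12500). They encode proline-rich lipid transfer proteins, and AZI1 is required for systemic priming by azelaic acid. The model had 1856 and 1407 FPKM in the Another Col-0 libraries, against 379 and 312 FPKM in the SALK Col-0 libraries. Both Another Col-0 libraries were above both SALK Col-0 libraries, and the means were 1632 ± 318 and 345 ± 47.5 FPKM (SD, n = 2 each), a 4.73-fold ratio. The log2 difference was 2.23 ± 0.207 (SE), with 2.29 between the first replicates and 2.17 between the second, and stayed between 2.03 and 2.43 when any single library was left out. It did not pass over all models (limma, adjusted p = 0.199). Among the 11836 annotated models that share their span with no other model, a set chosen after the data were seen, it did (limma, adjusted p = 0.0382). Over all alternatives tried, its adjusted p ranged from 0.0337 to 0.806, the highest without Another Col-0 replicate 2 (limma). Only 0.228% of the annotated models tested differed by at least as much in either direction, and 0.70% were at least as abundant. The limits deposited with each FPKM lay apart in both replicate pairs, with lower limits of 664 and 649 FPKM in Another Col-0 and upper limits of 387 and 404 FPKM in SALK Col-0. No other tested salicylic acid model had limits apart in both pairs, and among annotated models 0.114% did on the higher side and 0.0217% on the lower side. Such limits do not always enclose their own value, although they did for the AZI1 model. DIR1-LIKE (AT5G48490) had 114 FPKM in Another Col-0 replicate 1, above its own upper limit of 104 FPKM. How the limits were made is not given. In whole seedlings, a change in the number of cells that express a gene and a change in its RNA per cell cannot be told apart.

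The coding ends of the 4 genes are shown because their likeness bears on what the pooled value holds. Each line is the last 90 coding bases, stop codon included, read 5′ to 3′ from the RefSeq annotation of the TAIR10.1 assembly. Capitals mark bases that differ from AZI1 at the same place.
AZI1: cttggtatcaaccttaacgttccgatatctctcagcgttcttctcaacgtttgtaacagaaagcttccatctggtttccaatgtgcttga
EARLI1: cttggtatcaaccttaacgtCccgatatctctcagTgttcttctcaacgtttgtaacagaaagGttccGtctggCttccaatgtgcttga
AZI3: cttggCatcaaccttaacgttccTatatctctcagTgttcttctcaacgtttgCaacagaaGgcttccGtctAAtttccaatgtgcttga
AZI4: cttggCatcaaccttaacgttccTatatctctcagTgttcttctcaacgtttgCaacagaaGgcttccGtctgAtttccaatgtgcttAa
EARLI1 differed from AZI1 at 5 of these 90 bases, and AZI3 and AZI4 at 8 each. Over the whole coding sequences, 486 bases in AZI1 and 507 in EARLI1, 88.8% of aligned bases were identical. AZI3 and AZI4 were the closest pair, at 92.9% of aligned bases, and their transcripts share an unbroken run of 87 bases. With 1 transcript taken per gene, no pair of the 4 shares a stretch of 101 bases, the read length. An error-free read within these transcripts is thus an exact match to only 1 of the 4. Whether reads were placed on more than 1 of the genes with mismatches allowed was not tested. The deposited value still joins the 4 genes, and how much each gave to it was not measured.

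Across all 36 models, the lines did not overlap in 21 models with higher values in Another Col-0, where this held for 29.8% of annotated models above 0. In 9 models the lines did not overlap with lower values in Another Col-0, against 25.1% of annotated models. The other 6 overlapped, a label that takes no account of the replicate number. Of these, DIR1 and TGA6 were lower in Another Col-0 in both same-numbered pairs, and PBS3 and NPR3 higher in both. EPS1 and TGA3 changed sign between pairs. The salicylic acid genes were chosen with earlier results of these data known, so counts over them are a description only. Of the 27 tested models, 13 were apart on the higher side and 9 on the lower side, beside 29.3% and 23.2% of annotated models tested. No salicylic acid model passed an adjusted p of 0.05 on either side (0 higher, 0 lower), and 0% of the whole table did, with adjusted p-values of the 27 models between 0.199 and 1 (limma). That fit left out the replicate number, although same-numbered libraries deviated together from their line means (r = 0.79 across 18432 annotated models). With the number added as a block, 8 of the 27 models passed, beside 22.4% of the whole table. No label ties a number to a shared batch, so the other results are from the fit without the block unless stated. There, 5 of the 27 tested models were higher and 3 lower at an unadjusted p under 0.05. These sides held 10.2% and 6.45% of all models tested, and 11.4% and 7.22% of the annotated ones. With any single library left out, fewer models passed that threshold on each side. The 5 higher models were SAG101, NDR1, PR5 and the SARD4 and AZI1 models, and the 3 lower ones ICS2, NPR4 and TGA1. The median difference was 0.10 over the 36 models and 0.088 over the 27 tested, beside 0.02 and 0.03 over the annotated models above 0 and tested. The median over the 27 was 0.023 without Another Col-0 replicate 1 and 0.046 without SALK Col-0 replicate 2, against 0.11 without Another Col-0 replicate 2 and 0.12 without SALK Col-0 replicate 1. Apart from AZI1, the tested differences lay between -0.40 for NPR4 and 0.51 for the SARD4 model. At least 2-fold in both replicate pairs on the log2(FPKM + 1) scale was reached by the AZI1 model alone, beside 0.792% of annotated models on the higher side and 0.163% on the lower side. The annotated models of 10 of the 36 share their span with other models, namely ICS2, EDS5, EPS1, NPR1, NIMIN3, SARD1, TGA4, TGA6, BSMT1 and the TGA2 and TGA5 model, and reads there may have been divided between models.

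**Figure D1:**
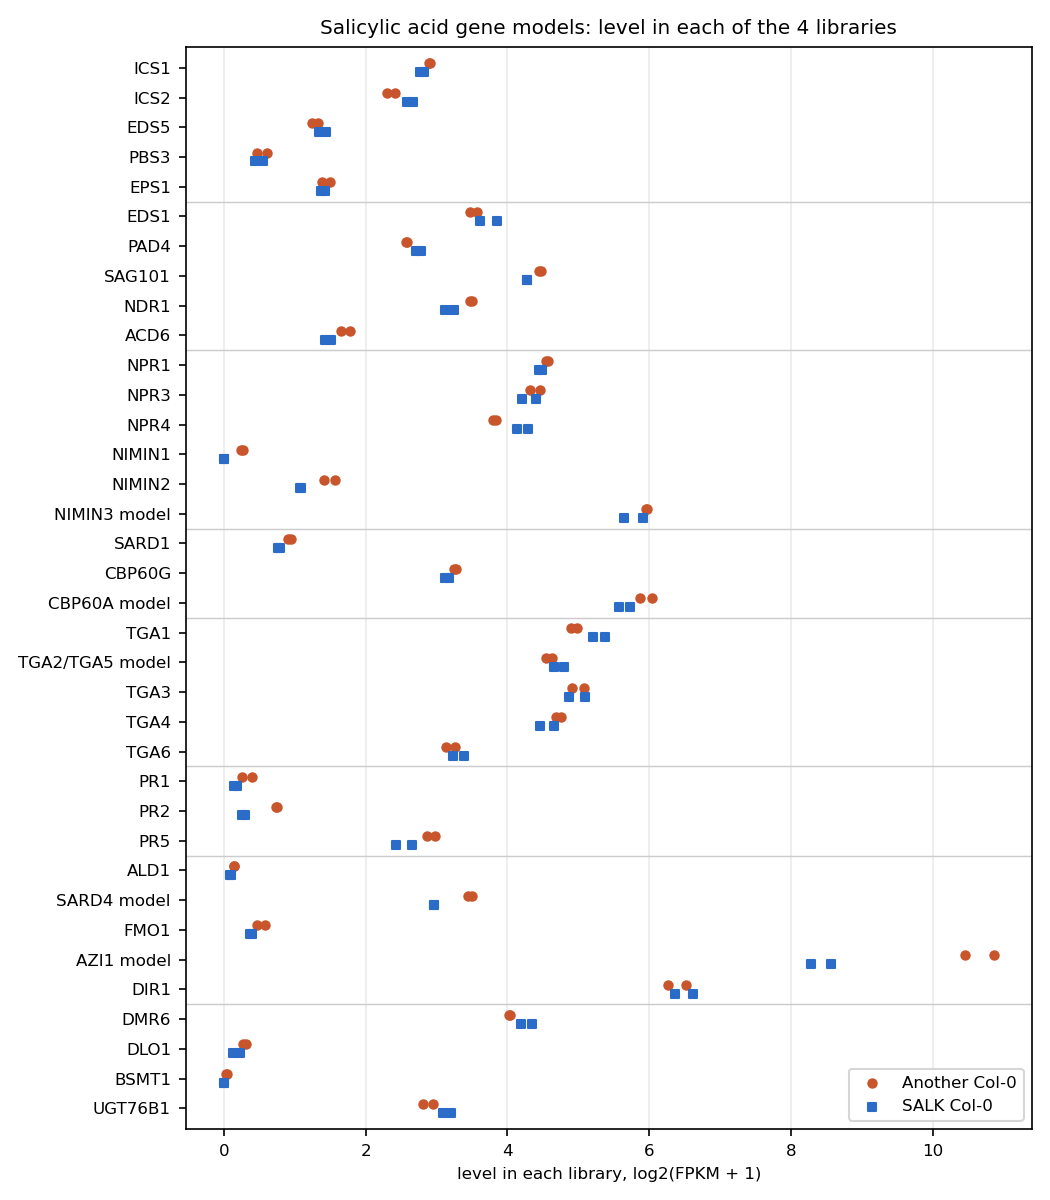
Level of each of the 36 salicylic acid models in each library as log2(FPKM + 1), grouped by role (grey lines), with Another Col-0 as circles above SALK Col-0 as squares. The AZI1 model has the highest level and the widest gap between lines, while PR1, ALD1, NIMIN1, DLO1 and BSMT1 lie near 0 in all libraries.

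Of the enzymes and the transporter of synthesis, ICS1 and ICS2 lay on opposite sides. ICS1 (AT1G74710), the main isochorismate synthase of pathogen-induced salicylic acid, had 6.52 and 6.46 FPKM in Another Col-0, against 6.08 and 5.78 FPKM in SALK Col-0. Its lines did not overlap, and the difference was 0.11 ± 0.0619 (limma, adjusted p = 0.484). ICS2 (AT1G18870), the second isochorismate synthase gene, had 3.94 and 4.32 FPKM in Another Col-0, against 5.01 and 5.34 FPKM in SALK Col-0. Here both Another Col-0 libraries were the lower ones, with a difference of -0.27 ± 0.0840 (limma, adjusted p = 0.30). EDS5 (AT4G39030), the plastid exporter, had 1.36 and 1.5 FPKM in Another Col-0, against 1.53 and 1.71 FPKM in SALK Col-0. PBS3 (AT5G13320), which joins isochorismate to glutamate, was low and overlapped, at 0.529 and 0.381 FPKM in Another Col-0 and 0.458 and 0.355 FPKM in SALK Col-0. EPS1 (AT5G67160), which speeds the last step, overlapped too, with means of 1.71 ± 0.157 FPKM in Another Col-0 and 1.63 ± 0.0699 FPKM in SALK Col-0 (SD, n = 2 each), and unannotated models on the opposite strand overlap it. Of these 5 models, 1 was apart on the higher side, 2 on the lower side, and 2 overlapped. Of annotated models above 0, 29.8% were apart on the higher side and 25.1% on the lower side.

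The EDS1 node consists of lipase-like proteins that relay signals from immune receptors. EDS1 (AT3G48090) had 10.9 and 10.1 FPKM in Another Col-0, against 13.4 and 11.3 FPKM in SALK Col-0. PAD4 (AT3G52430), which pairs with EDS1 in basal resistance, had 5.0 and 4.92 FPKM in Another Col-0, against 5.54 and 5.84 FPKM in SALK Col-0. Both genes were lower in both Another Col-0 libraries, by -0.21 ± 0.112 and -0.17 ± 0.0665 (limma, adjusted p = 0.467 and 0.365). SAG101 (AT5G14930), the alternative partner of EDS1, was on the other side, at 21.3 and 20.8 FPKM in Another Col-0 and 18.4 and 18.4 FPKM in SALK Col-0. Its difference was 0.19 ± 0.0481 (limma, adjusted p = 0.26). NDR1 (AT3G20600), a plasma membrane protein needed by coiled-coil immune receptors, had 10.3 and 10.1 FPKM in Another Col-0, against 8.52 and 7.64 FPKM in SALK Col-0. ACD6 (AT4G14400), an ankyrin protein that promotes salicylic acid accumulation, had 2.14 and 2.43 FPKM in Another Col-0, against 1.69 and 1.83 FPKM in SALK Col-0. The differences of NDR1 and ACD6 were 0.31 ± 0.0768 and 0.25 ± 0.123 (limma, adjusted p = 0.254 and 0.441), so within this group 3 models were apart on the higher side and 2 on the lower side. These sides held 29.8% and 25.1% of annotated models above 0.

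Among the receptors, NPR4 differed most. NPR4 (AT4G19660, chr4:10695925-10698724), a co-repressor released by salicylic acid, had 13.3 and 12.9 FPKM in Another Col-0, against 18.5 and 16.6 FPKM in SALK Col-0. Its difference of -0.40 ± 0.0786 was -0.45 between the first replicates and -0.34 between the second (limma, adjusted p = 0.221). NPR1 (AT1G64280), the co-activator of the family, had 22.8 and 22.2 FPKM in Another Col-0, against 21.4 and 20.7 FPKM in SALK Col-0. NPR3 (AT5G45110), the other co-repressor, had 20.9 and 19.0 FPKM in Another Col-0, against 20.2 and 17.4 FPKM in SALK Col-0, and its lines overlapped. Per length, the FPKM level of NPR1 was above that of NPR3, and NPR3 above NPR4, within each of the 4 libraries. The NIMIN genes encode small proteins that bind NPR1. NIMIN2 (AT3G25882), an early salicylic acid response gene, had 1.65 and 1.97 FPKM in Another Col-0, against 1.11 and 1.12 FPKM in SALK Col-0, a difference of 0.41 ± 0.149 (limma, adjusted p = 0.334). NIMIN1 (AT1G02450) had 0.208 and 0.183 FPKM in Another Col-0 and was listed at 0 in both SALK Col-0 libraries. NIMIN3 (AT1G09415) lies in a model with G6PD4 (AT1G09420), a glucose-6-phosphate dehydrogenase gene, which had 60.9 and 61.6 FPKM in Another Col-0 and 59.3 and 49.2 FPKM in SALK Col-0. The NIMIN3 share of that model was not measured.

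SARD1 and CBP60G encode related calmodulin-binding-protein-like factors that activate ICS1 after infection, and CBP60A is a negative regulator of the same family. All 3 models were higher in both Another Col-0 libraries than in both SALK Col-0 libraries, by small steps. This held for 29.8% of annotated models above 0. SARD1 (AT1G73805), whose start is overlapped by an unannotated model on the opposite strand, had 0.929 and 0.871 FPKM in Another Col-0, against 0.735 and 0.703 FPKM in SALK Col-0. CBP60G (AT5G26920) had 8.66 and 8.45 FPKM in Another Col-0, against 7.65 and 8.06 FPKM in SALK Col-0. Its difference was 0.11 ± 0.0594 (limma, adjusted p = 0.475). The CBP60A model, which also holds AT5G62575, a gene for a subunit of succinate dehydrogenase, had 64.5 and 57.7 FPKM in Another Col-0, against 52.2 and 46.8 FPKM in SALK Col-0. That pooled difference was 0.30 ± 0.102 (limma, adjusted p = 0.318), and the part of each gene was not measured.

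TGA factors are basic leucine zipper proteins that bind TGACG. TGA1 (AT5G65210, chr5:26057623-26061104), which supports SARD1 and CBP60G expression, had 30.5 and 28.7 FPKM in Another Col-0, against 40.6 and 35.8 FPKM in SALK Col-0. Both Another Col-0 libraries were lower, by -0.36 ± 0.0929 (limma, adjusted p = 0.261), or -0.40 and -0.31 in the replicate 1 and 2 pairs. TGA4 (AT5G10030), its closest relative, lay on the other side, at 25.9 and 24.7 FPKM in Another Col-0 and 24.2 and 21.0 FPKM in SALK Col-0. TGA3 (AT1G22070), an activator of PR genes, overlapped, with means of 30.9 ± 2.76 FPKM in Another Col-0 and 30.7 ± 3.35 FPKM in SALK Col-0. Per length, the FPKM level of TGA1 was below that of TGA3 within each Another Col-0 library, with overlapping ranges, and above it within each SALK Col-0 library. TGA2, TGA5 and TGA6 act redundantly in salicylic acid responses, and none was apart on the higher side. The model that pools TGA2 (AT5G06950) and TGA5 (AT5G06960) had 23.8 and 22.3 FPKM in Another Col-0, against 26.8 and 24.1 FPKM in SALK Col-0, and did not overlap between lines. TGA6 (AT3G12250) had 8.58 and 7.73 FPKM in Another Col-0, against 9.44 and 8.39 FPKM in SALK Col-0, and overlapped. The TGA2 and TGA5 coding sequences are 82.3% identical and their transcripts share no stretch of 101 bases.

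Of the PR genes, the classical outputs of the pathway, PR1 and PR2 were under 1 FPKM in all libraries, and PR5 was at a level like that of ICS1. PR1 (AT2G14610, chr2:6241704-6242463), a secreted antimicrobial marker protein, had 0.189 and 0.314 FPKM in Another Col-0, against 0.102 and 0.136 FPKM in SALK Col-0. PR2 (AT3G57260, chr3:21188517-21189859), a beta-1,3-glucanase, had 0.687 and 0.669 FPKM in Another Col-0, against 0.197 and 0.232 FPKM in SALK Col-0. PR5 (AT1G75040, chr1:28177703-28178940), a thaumatin-like protein, had 6.29 and 6.84 FPKM in Another Col-0, against 4.38 and 5.26 FPKM in SALK Col-0. In each of the 3 genes both Another Col-0 libraries were above both SALK Col-0 libraries, with FPKM ratios of 2.11 for PR1, 3.17 for PR2 and 1.36 for PR5. The same held for 29.8% of annotated models above 0, and for 31.8% of those with a mean under 1 FPKM. PR1 and PR2 were under the level tested, and their deposited limits reached 0 in every library. The difference of PR5 was 0.38 ± 0.116, with 0.44 between the first replicates and 0.32 between the second (limma, adjusted p = 0.290).

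**Figure D2:**
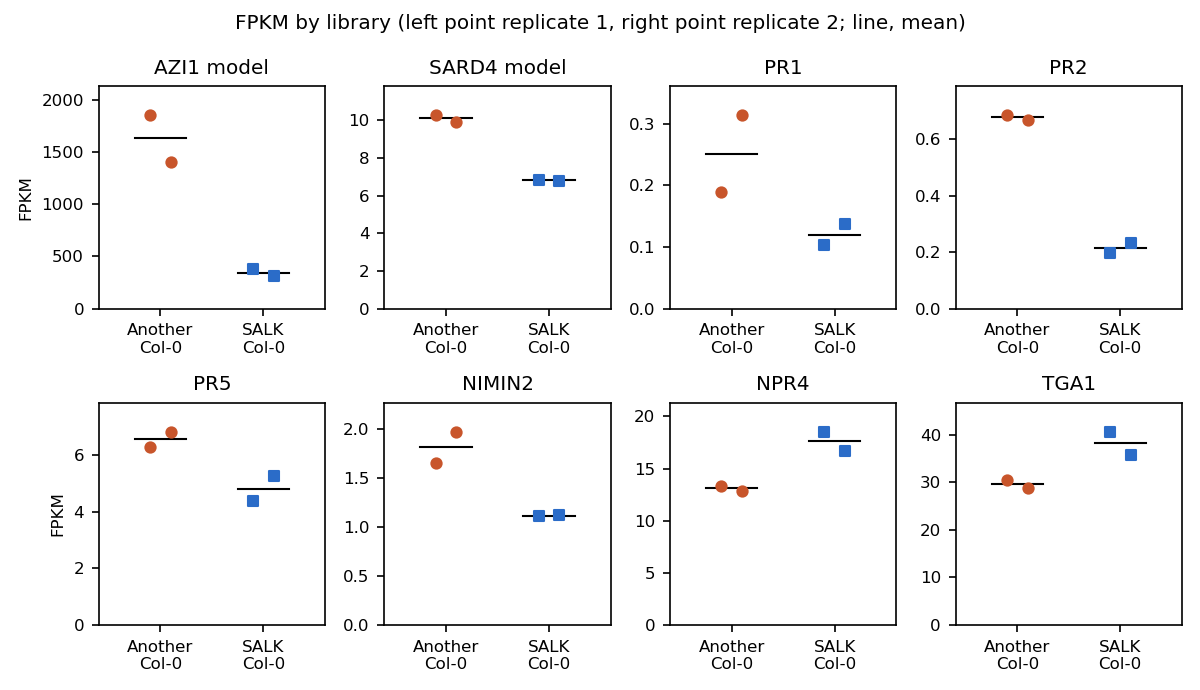
FPKM on linear axes from 0 for 8 models, with each library as a point (Another Col-0 left, SALK Col-0 right) and the line mean as a bar. The panels are a selection of models whose lines do not overlap, so they do not stand for the other models. Another Col-0 is the higher line for the AZI1 and SARD4 models, PR1, PR2, PR5 and NIMIN2, and the lower one for NPR4 and TGA1. Of annotated models above 0, 29.8% were apart on the higher side and 25.1% on the lower side. PR1 and PR2 are under 1 FPKM, with a deposited lower limit of 0 in every library.

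In pipecolate synthesis, ALD1 and FMO1 were close to the bottom of the scale. ALD1 (AT2G13810), the aminotransferase of the first step, had 0.105 and 0.104 FPKM in Another Col-0, against 0.0743 and 0.0634 FPKM in SALK Col-0. FMO1 (AT1G19250), which makes N-hydroxypipecolic acid, had 0.377 and 0.486 FPKM in Another Col-0, against 0.318 and 0.292 FPKM in SALK Col-0. SARD4 (AT5G52810), the reductase that acts between them, lies in a model with AT5G52800 at chr5:21395944-21400655. That model had 10.3 and 9.92 FPKM in Another Col-0, against 6.83 and 6.78 FPKM in SALK Col-0, a 1.48-fold ratio. Its difference of 0.51 ± 0.0543 was the second largest of the tested models (limma, adjusted p = 0.199), at 0.53 and 0.49 in the replicate 1 and 2 pairs. At least this difference was seen in 7.69% of annotated models, and the part of SARD4 in it was not measured. DIR1 (AT5G48485), a lipid transfer protein needed for the mobile signal, was abundant and overlapped, at 90.7 and 76.2 FPKM in Another Col-0 and 97.1 and 81.2 FPKM in SALK Col-0.

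Turnover genes lay on both sides, with the 2 tested models, DMR6 and UGT76B1, both lower in Another Col-0. Those on the higher side, DLO1 and BSMT1, were under 1 FPKM, with a deposited lower limit of 0 in every library. Of annotated models above 0, 29.8% were apart on the higher side and 25.1% on the lower side. DMR6 (AT5G24530) and DLO1 (AT4G10500) encode hydroxylases that inactivate salicylic acid. DMR6 had 15.2 and 15.4 FPKM in Another Col-0, against 17.2 and 19.4 FPKM in SALK Col-0, a difference of -0.24 ± 0.0816 (limma, adjusted p = 0.317). DLO1 had 0.245 and 0.207 FPKM in Another Col-0, against 0.0909 and 0.175 FPKM in SALK Col-0. UGT76B1 (AT3G11340), a glucosyltransferase for isoleucic acid, salicylic acid and N-hydroxypipecolic acid, had 6.69 and 6.0 FPKM in Another Col-0, against 8.22 and 7.51 FPKM in SALK Col-0. Its difference was -0.27 ± 0.0901 (limma, adjusted p = 0.312). BSMT1 (AT3G11480), the methyltransferase that makes methyl salicylate, had 0.0282 and 0.0182 FPKM in Another Col-0 and was listed at 0 in both SALK Col-0 libraries.

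**Figure D3:**
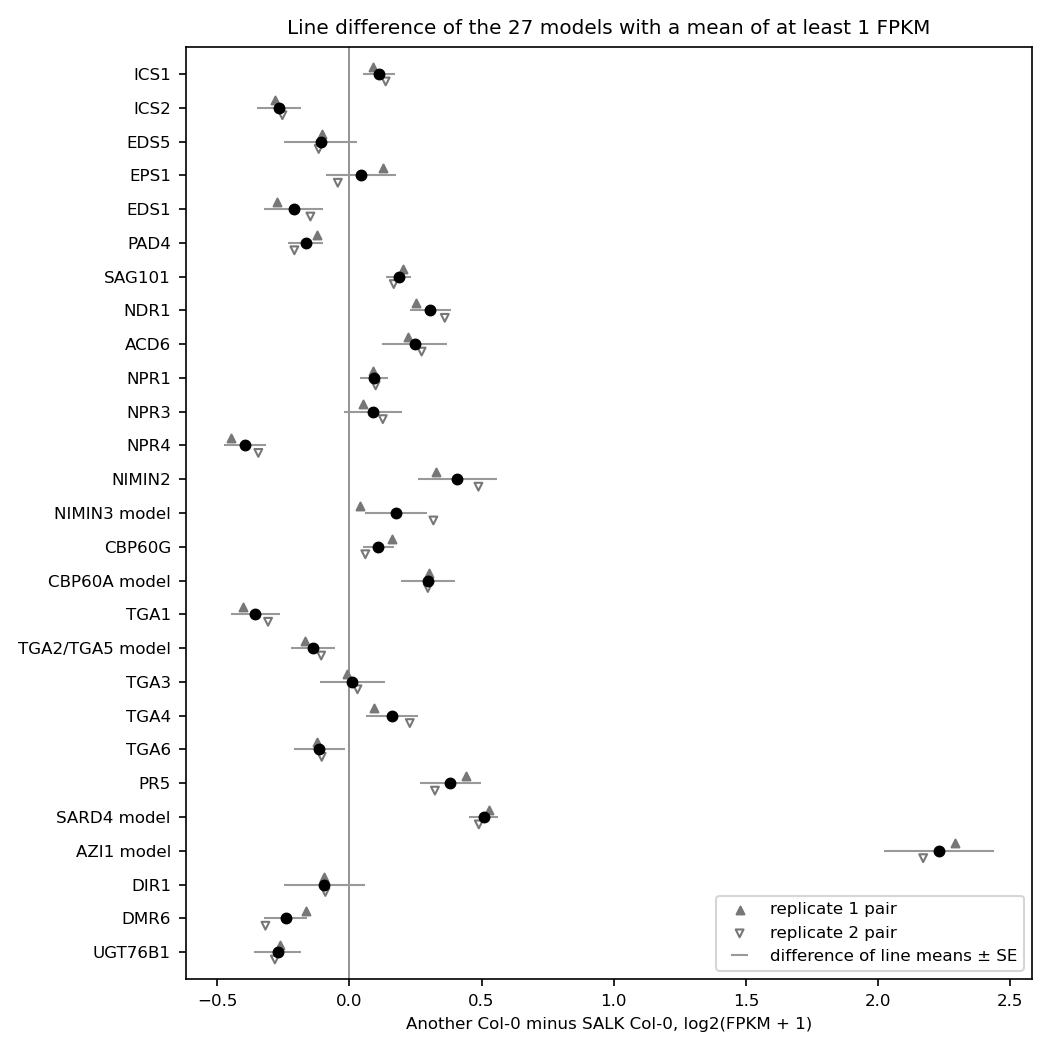
Line difference of the 27 tested models as Another Col-0 minus SALK Col-0 in log2(FPKM + 1), with black points for the difference of line means, bars for its SE, and triangles for the replicate 1 and replicate 2 pairs. The AZI1 model is at 2.23 and the others lie between -0.40 and 0.51, and EPS1 and TGA3 change sign between pairs.

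The 9 models under 1 FPKM were those of PBS3, NIMIN1, SARD1, PR1, PR2, ALD1, FMO1, DLO1 and BSMT1. In 8 of them both Another Col-0 libraries were above both SALK Col-0 libraries, in 0 they were below, and PBS3 overlapped. Of the 5184 annotated models above 0 with a mean under 1 FPKM, 31.8% were apart on the higher side. All 9 had a deposited lower limit of 0 in every library, so the deposited limits of the lines overlapped for each. The difference of PR2 was 0.47 on the log2(FPKM + 1) scale, and the pseudocount of 1 understates the ratios of such low genes.

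**Figure D4:**
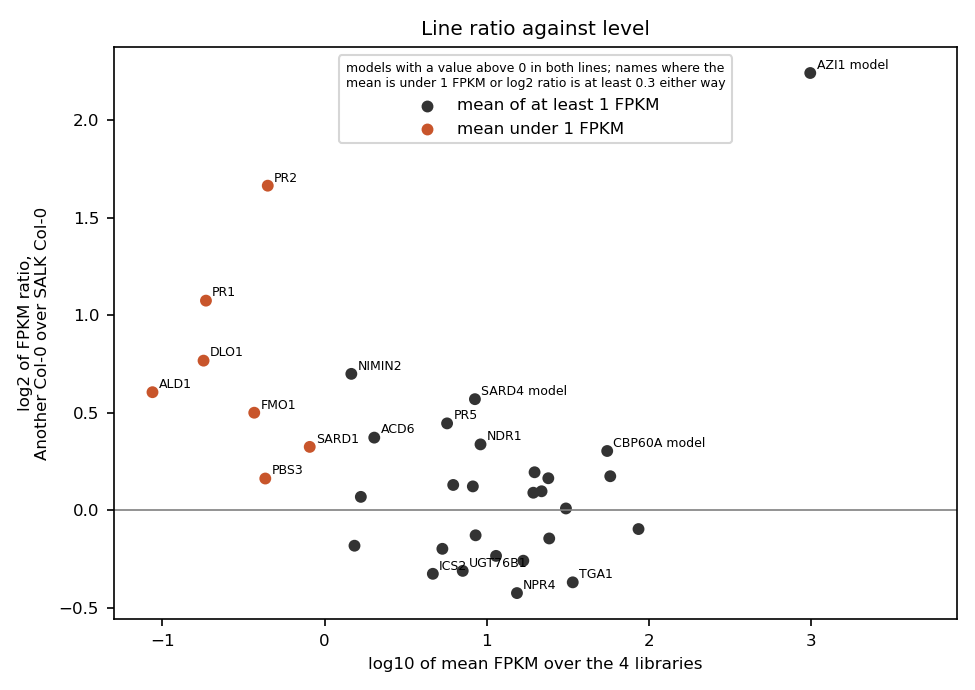
Line ratio of FPKM (log2, Another Col-0 over SALK Col-0) against mean FPKM over the 4 libraries (log10) for the 34 models with a value above 0 in both lines. Models under 1 FPKM (orange) all lie above 0, with PR2 and PR1 highest among them, and models of higher level lie on both sides, apart from the AZI1 model at the upper right.

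Other genes of the pathway were taken from lists by function, and 0 of their models passed over all models without the block (limma). These lists too were chosen with earlier results of these data known, so their counts are a description only. Among WRKY factors of salicylic acid signalling, 6 of 9 were tested, with 4 higher and 1 lower at an unadjusted p under 0.05, which 10.2% and 6.45% of all models tested reached on these sides. WRKY18, WRKY40 and WRKY60 form a group of interacting factors induced by pathogens. WRKY18 (AT4G31800) had 28.2 and 27.5 FPKM in Another Col-0, against 12.0 and 11.4 FPKM in SALK Col-0, a difference of 1.19 ± 0.0564 (limma, adjusted p = 0.199). WRKY40 (AT1G80840) and WRKY60 (AT2G25000) had differences of 0.55 ± 0.0707 and 0.49 ± 0.0914. WRKY70 (AT3G56400), induced by salicylic acid, was on the lower side, at 13.6 and 12.9 FPKM in Another Col-0 and 24.8 and 21.5 FPKM in SALK Col-0. Its difference was -0.76 ± 0.0988 (limma, adjusted p = 0.202).

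Among other enzymes of synthesis and conjugation, 12 models were tested, with 1 higher and 2 lower at an unadjusted p under 0.05, beside the same 10.2% and 6.45% of all models. Those shares also stand beside the counts of the lists that follow, which are given as a description. The phenylalanine ammonia-lyase gene PAL3 (AT5G04230) had 7.39 and 7.14 FPKM in Another Col-0, against 10.6 and 11.1 FPKM in SALK Col-0. PAL4 (AT3G10340) had a difference of -0.35 ± 0.0720. MES1 (AT2G23620), a methyl salicylate esterase, had 6.04 and 5.74 FPKM in Another Col-0, against 4.03 and 3.72 FPKM in SALK Col-0, the reverse order of PAL3. In the relatives of the NPR, TGA and CBP60 members, 10 models were tested, with 1 higher and 2 lower at that unadjusted threshold. The higher one was CBP60F (AT4G31000, 0.49 ± 0.0626), and the lower ones were BOP2 (AT2G41370, -0.47 ± 0.0631) and TGA9 (AT1G08320, -0.34 ± 0.0944). Among 9 tested upstream regulators, 1 was higher and 1 lower at an unadjusted p under 0.05 (limma). The higher one, WRKY28 (AT4G18170), an activator of ICS1, had 9.21 and 9.81 FPKM in Another Col-0, against 4.56 and 5.80 FPKM in SALK Col-0. The lower one was CAMTA2 (AT5G64220), a calmodulin-binding repressor of salicylic acid genes, with a difference of -0.26 ± 0.0495.

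Of 5 other salicylic acid outputs tested, 1 was higher and 1 lower at an unadjusted p under 0.05, beside 10.2% and 6.45% of all models. The WAK1 model, a wall-associated kinase gene pooled with AT1G21230, had 3.06 and 3.10 FPKM in Another Col-0, against 1.42 and 1.5 FPKM in SALK Col-0. PCC1 (AT3G22231), a pathogen-induced and clock-controlled gene, had 8.35 and 9.31 FPKM in Another Col-0, against 14.2 and 12.8 FPKM in SALK Col-0. Among lipid transfer relatives of AZI1 and DIR1, 4 models outside the AZI1 model were tested, with 0 higher and 1 lower at that threshold. That was DIR1-LIKE (AT5G48490), at 114 and 94.2 FPKM in Another Col-0 and 158 and 135 FPKM in SALK Col-0. The AT4G12545 model, pooled with AT4G12550, had a difference of 0.10 ± 0.0646. The next genes beyond AZI4 on the chromosome, AT4G12510 and AT4G12520, overlapped between lines, with differences of 0.03 ± 0.677 and -0.36 ± 0.482.

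The labelled tissue was checked against organ markers. Leaf markers were abundant, with 4 models of the 5 genes usable and summed levels of 11966 and 12424 FPKM in Another Col-0, against 10651 and 12219 FPKM in SALK Col-0. Most of that sum was the RBCS1A model, 1 of 96 models in a shared span. Its deposited limits were 15.6 and 22773 FPKM in Another Col-0 replicate 1, so its level is poorly fixed. The LHCB2.1 model pools 3 genes and had 1890 and 3174 FPKM in replicates 1 and 2 of Another Col-0. The 5 root markers summed to 15.8 and 16.1 FPKM in Another Col-0, against 12.7 and 13.4 FPKM in SALK Col-0. The 4 flower markers summed to 45.9 and 39.0 FPKM in Another Col-0, against 20.6 and 15.3 FPKM in SALK Col-0. The 4 seed markers summed to 2.63 and 2.45 FPKM in Another Col-0, against 7.61 and 7.24 FPKM in SALK Col-0. No marker was listed at 0 in all 4 libraries, although the seed albumin gene SESA1 was at 0 in both SALK Col-0 libraries and the nitrate transporter gene NRT2.1 at 0 in Another Col-0 replicate 2. Nearly all of the seed sum was the cruciferin gene CRA1, at 2.28 and 2.04 FPKM in Another Col-0, against 7.29 and 6.86 FPKM in SALK Col-0. OLEO1 was also lower in both Another Col-0 libraries, while CRU3 averaged 0.209 ± 0.00159 FPKM in Another Col-0 and 0.138 ± 0.000194 FPKM in SALK Col-0 (SD, n = 2 each), and SESA1 was on the higher side too. All 4 flower markers had higher means in Another Col-0. Nearly all of the flower sum was SEP3 and PI, while AP3 and AG were under 1 FPKM with a deposited lower limit of 0 in every library. Root and leaf sums held members on both sides, with ratios of 1.64 for TIP2;3 and 0.689 for IRT1, and of 1.23 for RBCS1A and 0.638 for GLDP1. SEP3, PI and CRA1 thus lay apart between the lines, though none passed over all models (limma, adjusted p = 0.22, 0.199 and 0.199). The part of these markers in the differences of the salicylic acid genes was not tested.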

How the data were processed

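TruSeq RNA V2 libraries of 4 seedling samples were read as single ends of 101 nt, per the labels' protocols. The authors deposited FPKM values for 36251 models, each with limits on both sides and a status, per the file headers. The submitters' processing notes name TopHat, Cufflinks, Cuffdiff and TAIR10, and versions, filters, counting strand and the level of the limits are not given in the sources used here. The kit does not mark strand by its standard protocol, so overlapping antisense models may share reads. A failed estimate in any library removed 19 models. In 301 organelle rows the annotation fields are displaced, and genes were read from the field that holds them. Models averaging 1 FPKM or more (20634, of which 18432 annotated) were fitted as log2(FPKM + 1) with limma 3.58.1 (R 4.3.3) with the line as term, a mean-variance trend, 2 residual degrees of freedom, two-sided p and Benjamini-Hochberg adjustment over all of them at 0.05. The fit was tested on simulated data with independent libraries and the same spread for every model. Those data lacked the shared deviation of same-numbered libraries, so that test does not show how the fit behaves under it. Sequences and symbols came from RefSeq (TAIR10.1), read by that annotation's own coordinates, and model coordinates are those of the deposited table. Members and lists were chosen with earlier results of these data known. All listed genes are accounted for, and other lists name up to 4 models by smallest p. Alternatives covered the pseudocount, filter, scaling, trend, annotated models, the replicate number, each library left out and models alone in their span.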

Additional observations from a re-analysis of the deposited data

How the results depend on the processing

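The direction of all 36 models was the same with a pseudocount of 0.1 or with no filter, and no salicylic acid model was called in either. TGA3 turned to -0.015 after scaling to equal medians and -0.039 after quantile normalization. With any single library left out, 5 models changed sign: PBS3, under the level tested, ranged from -0.026 to 0.12, EPS1 ranged from -0.017 to 0.10, NPR3 from -0.015 to 0.19, TGA3 from -0.10 to 0.12 and DIR1 from -0.22 to 0.033. Calls at an unadjusted p under 0.05 then ranged from 2 to 3 higher and 0 to 2 lower. Such calls were 5 on the lower side with equal medians and 3 on the higher side after quantile normalization. In a fit restricted to annotated models, 10 were higher and 1 lower, with none among the salicylic acid models. Among annotated models alone in their span, a setting chosen after seeing the data, 139 were higher and 57 lower, with 1 salicylic acid model, AZI1, among the higher. With the replicate number as a block, 2951 models of the table were higher and 1673 lower (22.4%), and 5 salicylic acid models were higher (NDR1, CBP60A, PR5, SARD4 and AZI1) and 3 lower (NPR4, TGA1 and UGT76B1), or 8 and 7 at an unadjusted p under 0.05. The share of all models at that unadjusted threshold was taken only with all libraries, without the block and on the unscaled values. It was not taken with the block, with a library left out, with equal medians or after quantile normalization. The unadjusted counts of salicylic acid models in those settings are a description only and cannot be compared with the rest of the table. Same-numbered libraries deviated together from their line means (r = 0.79 across 18432 annotated models, which are not independent). Differences by replicate pair are given as a description. With only 2 pairs and no label that ties a number to a shared batch, the numbers were not taken as pairs in the fit without the block. The cause of these changes was not tested. The FPKM table gives no read totals, which limits what can be said of the models under 1 FPKM.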

Other observations

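Unannotated models within or beside some salicylic acid genes differed by replicate number more than by line. On the strand opposite EPS1, a model at chr5:26797440-26798467 had 6.08 and 0 FPKM in replicates 1 and 2 of Another Col-0, and 5.79 and 0 FPKM in those of SALK Col-0. A short model opposite the start of SARD1 at chr1:27749088-27749248 had 0 and 2.82 FPKM in Another Col-0, and 0 and 6.10 FPKM in SALK Col-0. Within the span of the TGA2 and TGA5 model, one assigned to TGA5 at chr5:2155180-2155409 had 4.13 and 0 FPKM in Another Col-0, and 3.34 and 0 FPKM in SALK Col-0. The annotated models of these genes share their spans with them.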
